A study of Mus musculus with 24 samples.

Results

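The 10 genes described here encode surface receptors and granule proteins of platelets: Gp5, Gp1ba, Gp1bb, Gp9, Gp6, Treml1, Cxcl4, Ppbp, F13a1 and Plek. They were taken by their symbol on the array, with no measured value used in the choice. Of the 18120 symbols on the array, 9 belonged to this set, and all 9 were among the 9591 symbols kept by a filter on dim probes. Each of the 9 passed through non-induced CD41 sp cells, where every one was detected on 3 of 3 arrays, and 8 of them also passed through another group. Ppbp passed through that group alone. Gp6, the platelet collagen receptor, had no probe under that symbol and was not analysed here.

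Messenger RNA was measured on 24 Illumina arrays from mouse embryoid bodies, clusters that embryonic stem cells form as they differentiate in suspension. Every culture, controls included, came from Ainv15 stem cells that carried ICN1, the intracellular and active domain of Notch1, under a doxycycline-inducible promoter. Induced cultures had ICN1 switched on between day 3 and day 5, the non-induced ones had none, and both were taken apart on day 6 and sorted into CD41 sp, VE sp, DP and DN cells. This gave 8 groups of 3 replicates: non-induced and induced CD41 sp, VE sp, DP and DN. A single stem cell line was used, and doxycycline came with every induction, so drug and ICN1 cannot be told apart. The labels do not spell out the fraction names. Itga2b, which encodes CD41, had a mean log2 intensity of 11.27 in non-induced DP cells, against 9.52 for VE sp and 7.91 for DN, and differed from DP by -0.27 ± 0.24 in CD41 sp cells. Cdh5, which encodes VE-cadherin, was detected on no array of CD41 sp or DN cells. The mean raw intensity of an array ran from 165, on non-induced VE sp replicate 3, to 656 and 41.8% to 51.3% of its probes were detected, that is, had a detection p under 0.05. On the induced arrays of replicate 2 the mean raw intensity was 198 to 314, against 425 to 474 on the non-induced arrays of that replicate.

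Platelets are shed by megakaryocytes, and the genes for their adhesion receptors are switched on as megakaryocytes mature. Gp1ba, Gp1bb, Gp9 and Gp5 encode the subunits of the GPIb-IX-V complex, through which platelets catch von Willebrand factor at a damaged vessel wall. Gp1ba carries the ligand site, Gp1bb is joined to it by a disulphide bond, Gp9 is needed for the complex to reach the surface and Gp5 binds it more loosely. Treml1 is a receptor held in alpha granules until the platelet is activated. Cxcl4, also called platelet factor 4, and Ppbp, the precursor of the chemokine NAP-2, are alpha granule chemokines. F13a1 encodes the A subunit of factor XIII, which cross-links fibrin and is also made by macrophages. Plek encodes pleckstrin, the main substrate of protein kinase C in platelets, found in other blood cells too. In the embryo, primitive megakaryocytes arise beside primitive red cells, and CD41 is a surface marker of early blood progenitors as well as of megakaryocytes.

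All 10 genes had a promoter entry in RefSeq, F13a1 with 2. The 250 bases upstream of each annotated start are shown for the 4 subunits of the receptor complex and the 2 chemokines, the genes whose levels are compared most closely. Bases in capitals match 1 of 3 short words on either strand. These are GATAA, a word that GATA factors can recognise, then GGAAG, which ETS family factors can recognise, and last TGTGGT, which RUNX factors can recognise. Sequences run 5′ to 3′ along the gene's strand in build GRCm38.p6, from Gp5 on the minus strand at chr16:30310782-30311031, Gp1ba on the plus strand at chr11:70638872-70639121, Gp1bb on the minus strand at chr16:18622404-18622653, Gp9 on the plus strand at chr6:87777820-87778069, Cxcl4 on the plus strand at chr5:90772185-90772434 and Ppbp on the plus strand at chr5:90768268-90768517.
Gp5: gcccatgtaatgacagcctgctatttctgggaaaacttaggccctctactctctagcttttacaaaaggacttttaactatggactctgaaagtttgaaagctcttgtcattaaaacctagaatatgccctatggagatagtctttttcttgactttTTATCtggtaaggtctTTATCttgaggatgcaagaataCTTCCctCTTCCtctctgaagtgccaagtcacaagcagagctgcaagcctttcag
Gp1ba: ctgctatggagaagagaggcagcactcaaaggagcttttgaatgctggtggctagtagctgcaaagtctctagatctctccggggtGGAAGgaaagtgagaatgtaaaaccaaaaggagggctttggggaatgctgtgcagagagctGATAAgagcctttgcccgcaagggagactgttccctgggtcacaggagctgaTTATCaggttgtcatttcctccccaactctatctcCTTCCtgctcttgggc
Gp1bb: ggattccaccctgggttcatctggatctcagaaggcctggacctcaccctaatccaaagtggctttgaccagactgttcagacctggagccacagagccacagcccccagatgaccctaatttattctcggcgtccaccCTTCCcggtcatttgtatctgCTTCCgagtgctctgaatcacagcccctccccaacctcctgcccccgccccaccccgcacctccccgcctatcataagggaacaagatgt
Gp9: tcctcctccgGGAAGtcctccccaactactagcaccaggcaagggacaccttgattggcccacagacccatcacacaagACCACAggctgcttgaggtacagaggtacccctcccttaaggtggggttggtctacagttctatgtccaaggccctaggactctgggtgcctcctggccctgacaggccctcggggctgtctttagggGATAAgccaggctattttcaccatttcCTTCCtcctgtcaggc
Cxcl4: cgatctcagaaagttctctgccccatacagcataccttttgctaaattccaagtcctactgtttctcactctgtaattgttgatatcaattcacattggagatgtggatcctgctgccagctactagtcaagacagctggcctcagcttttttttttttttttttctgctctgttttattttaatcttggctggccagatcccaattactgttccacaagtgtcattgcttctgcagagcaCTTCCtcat
Ppbp: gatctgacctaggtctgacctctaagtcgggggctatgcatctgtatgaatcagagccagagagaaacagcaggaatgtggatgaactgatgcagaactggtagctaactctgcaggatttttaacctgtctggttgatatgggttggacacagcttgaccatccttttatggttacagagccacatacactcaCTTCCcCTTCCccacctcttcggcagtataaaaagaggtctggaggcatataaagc
None of the matches overlapped another. In these windows Gp5 and Gp1ba each held 2 matches to GATAA, Gp9 held 1, and Gp1bb, Cxcl4 and Ppbp held none. For GGAAG the number of matches was 2 in each window but that of Cxcl4, which held 1. Over all 11 promoters of the 10 genes, 6 held GATAA, against 22.6% of all 32851 mouse promoters in the same window. GGAAG was present in 9 of the 11, against 64.1% of all promoters, and TGTGGT in 1 of the 11, that of Gp9, against 14.0%. These letters describe the windows, and no binding was measured.

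Levels are given as log2 intensities after background correction and quantile normalization, so that 1 unit is a doubling of signal, and values of different probes cannot be ranked against each other. In sorted fractions fewer cells of a type and less RNA per cell cannot be told apart. Intervals of a difference are at the 95% level. Differences are means ± SE from limma's model over all 24 arrays, with p-values adjusted by Benjamini-Hochberg over 9591 genes and called under 0.05. Where a group had no detected array, the difference is a lower bound, written as at least N-fold. For such a bound, the undetected side of an array is set to the lowest detected signal, or to the probe's own signal where that is higher.

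Gp5, the subunit that binds the complex most loosely, stood at 10.40, 11.91 and 10.74 on the non-induced CD41 sp arrays of replicates 1, 2 and 3. Non-induced DP cells gave 8.06, 9.83 and 8.63, and VE sp cells 4.74, 4.99 and 5.30. DN cells gave 4.75, 5.52 and 5.10. CD41 sp values lay above all DP values, and both lay above VE sp and DN, which overlapped. The difference from DN was 5.89 ± 0.51 in CD41 sp, or 59.3-fold (adjusted p = 2.56e-08), and 3.71 ± 0.51 in DP (7.52e-06).

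For Gp1ba, the subunit with the ligand site, non-induced CD41 sp arrays read 8.01, 9.19 and 8.16 and DP arrays 6.99, 7.42 and 6.87. VE sp arrays read 5.48, 4.99 and 5.43 and DN arrays 4.84, 5.24 and 5.25, and the probe was detected on every one of these 12 arrays. The lowest CD41 sp array exceeded the highest DP array, and VE sp and DN overlapped. Its difference between CD41 sp and DN was 3.34 ± 0.37 (6.33e-07) and between CD41 sp and DP 1.36 ± 0.37 (0.0151). The second call was lost under median scaling (0.0699). Without CD41 sp replicate 2 that difference was 0.99 (adjusted p = 0.119), and without DP replicate 1 or 3 it was 1.31 or 1.25 (0.0593 and 0.0649).

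Gp1bb, the disulphide partner of Gp1ba, was highest in CD41 sp cells, with 9.28, 9.63 and 8.95. DP cells gave 5.57, 6.08 and 4.92, with detection on 2 of 3 arrays. No VE sp array (4.34, 4.37 and 4.58) and no DN array (4.48, 4.48 and 4.48) detected it. CD41 sp was at least 20.3-fold higher than DN (1.79e-09) and exceeded DP by 3.77 ± 0.34 (5.55e-08). The corresponding CD41 sp to DP differences of its partners were 1.36 for Gp1ba, 1.74 for Gp9 and 2.18 for Gp5, and the difference between genes was not tested. DP cells were at least 1.5-fold higher than DN (0.0295), a call lost with no filter (0.0616), with the authors' processed values (0.189), without background correction (0.157), with an offset of 50 (0.172), and without DP replicate 1 or 2 or any 1 of the 3 DN arrays (0.0669 to 0.179).

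Gp9, needed to bring the complex to the surface, measured 9.82, 9.87 and 9.42 in non-induced CD41 sp and 7.66, 8.23 and 7.98 in DP cells. DN cells gave 5.70, 6.06 and 5.82, detected on 3 of 3 arrays, and VE sp cells 4.89, 5.12 and 4.62, detected on 2. The 4 ranges did not overlap, and Gp9 was called lower in VE sp than in DN cells (-0.98 ± 0.27, 0.00961), a call lost under median scaling (0.0698), with the authors' processed values (0.232), without background correction (0.111) and with an offset of 50 (0.0718). CD41 sp exceeded DN by 3.84 ± 0.27 (1.79e-09), VE sp by 4.82 ± 0.27 (1.87e-11) and DP by 1.74 ± 0.27 (8.14e-05).

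Treml1, the granule-held receptor, was highest in CD41 sp and next in DP cells, while VE sp and DN overlapped. CD41 sp arrays read 10.45, 10.80 and 10.31, those of DP cells 7.51, 8.25 and 7.82 and those of VE sp cells 4.72, 5.18 and 4.43. DN arrays read 4.75, 4.65 and 4.81 and none detected it. CD41 sp stood above DP on every array, by 2.66 ± 0.31 (1.92e-06), and DP was at least 7.56-fold above DN (8.21e-08).

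The chemokine Cxcl4 had the widest spread between CD41 sp replicates of the 9 genes. Non-induced CD41 sp arrays read 11.57, 13.04 and 10.44, DP arrays 9.19, 10.36 and 8.61, VE sp arrays 5.26, 6.08 and 4.67 and DN arrays 4.37, 4.45 and 4.82. The SD over 3 replicates was 1.31 in CD41 sp and 0.90 in DP cells, and DN arrays did not detect it. Although its lowest CD41 sp array only just exceeded its highest DP array, CD41 sp was above DP within every replicate, by 2.39, 2.68 and 1.83 (2.30 ± 0.69, 0.0311, or 0.000931 with the replicate as a block). Without the block, leaving out CD41 sp replicate 2 gave 1.62 (0.199), and leaving out CD41 sp replicate 1 or DP replicate 1 or 3 also ended the call (0.0695 to 0.144), as did no filter (0.0845) and the authors' values (0.0571). DP was at least 21.7-fold above DN (1.39e-05).

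Ppbp, the other chemokine, was detected in CD41 sp cells only. Its non-induced CD41 sp values were 6.66, 7.14 and 5.99, and no array of DP (4.72, 4.54 and 4.76), VE sp or DN cells detected it in either condition. CD41 sp was at least 3.15-fold above DN (2.98e-07) and at least 3.12-fold above DP (3.53e-06). Ppbp passed the filter through non-induced CD41 sp cells alone, so these differences are not independent of the filter. A second Ppbp probe read 6.07, 7.46 and 5.61 in non-induced CD41 sp cells and was undetected on every DP, VE sp and DN array as well. Cxcl4 and Ppbp thus differed in DP cells, where Cxcl4 was detected on all 3 non-induced arrays and Ppbp on none. The level of a gene below detection is not known.

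F13a1, the factor XIII subunit, broke the order. Non-induced DP arrays read 9.20, 9.25 and 9.83 against 6.90, 7.53 and 6.67 on CD41 sp arrays. VE sp arrays read 6.26, 5.19 and 5.50, and DN arrays 4.35, 4.41 and 4.43 with no detection. The 4 ranges did not overlap. DP exceeded CD41 sp by a log2 difference, CD41 sp minus DP, of -2.39 ± 0.28 (2.49e-06), and was at least 22.4-fold above DN (2.97e-11). In induced cells the DP arrays read 9.21, 9.59 and 9.24 and the CD41 sp arrays 6.65, 7.35 and 6.98, a difference of -2.36 ± 0.28 (3.71e-06). Thus F13a1 was the one gene of the 9 called higher in DP than in CD41 sp cells, in both conditions.

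Plek, the protein kinase C substrate, was shared by CD41 sp and DP cells. Non-induced CD41 sp arrays read 10.96, 12.66 and 10.51 and DP arrays 10.49, 11.52 and 10.31, which overlapped (0.60 ± 0.59, 0.649, interval of the difference -0.61 to 1.82). VE sp arrays read 6.49, 7.41 and 7.19 and DN arrays 5.56, 6.35 and 5.39. It was detected on all 24 arrays. DP exceeded DN by 5.01 ± 0.59 (9.71e-07) and VE sp by 3.75 ± 0.59 (0.000116).

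**Figure D1:**
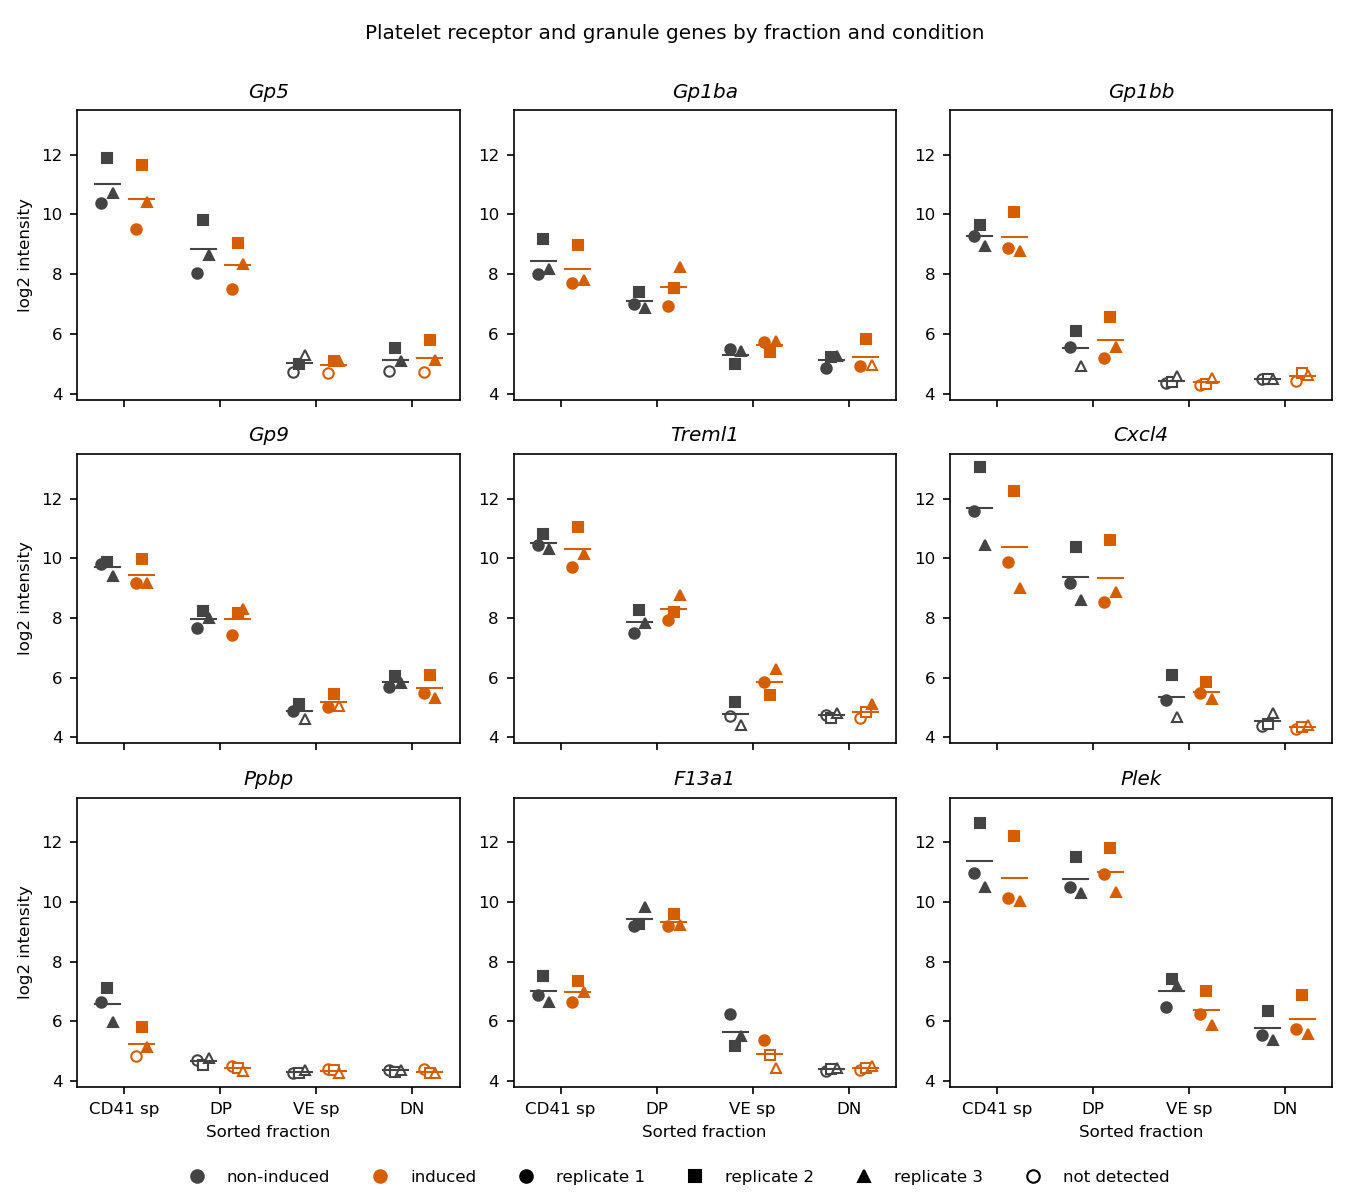
Log2 intensity of the 9 measured genes on each of the 24 arrays, by sorted fraction (x axis), with condition as colour, replicate as symbol, open symbols for undetected probes and bars for the mean of 3. In 8 of the 9 panels the non-induced CD41 sp mean is the highest, F13a1 peaks in DP, and Ppbp is detected in CD41 sp alone.

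Markers of other cell types differed between the same fractions. Of 11 macrophage and monocyte markers, 7 passed the filter, and their summed intensity over the non-induced arrays was 1461 to 2104 in DP, 1123 to 1523 in VE sp, 311 to 389 in CD41 sp and 177 to 184 in DN cells. All 3 arrays detected 6 of the 7 in DP and 3 of them in CD41 sp, whereas Cd68, Fcgr3, Cx3cr1, Mrc1, Lyzs and Lyz were detected on no DN array. Granulocyte markers, of which 2 of 5 passed, summed to 626.5 to 1037 in DP and to 210 to 356 in CD41 sp cells. Both lists were highest in DP cells, as F13a1 was, and their part in its level was not tested. The VE sp sum was mostly Mrc1, with a mean log2 level of 10.07 there and 4.65 in CD41 sp cells. Lyz (6.27 in VE sp and 6.93 in CD41 sp), Fcgr3 (5.26 and 6.04) and Cx3cr1 (4.66 and 5.23) were lower in VE sp than in CD41 sp cells, as F13a1 was. Csf1r was higher in VE sp (5.134 and 4.955), and Cd68 (4.966 and 4.968) and Lyzs (4.951 and 5.014) differed little. Each of these last was detected on at most 1 array of either group. Erythroid markers, 10 of 10 tested, summed to 124700 to 141200 in CD41 sp, 116800 to 153200 in DN, 10030 to 22600 in DP and 5010 to 8099 in VE sp cells. They separated CD41 sp from DP as most of the platelet genes did, but were as high in DN, where the platelet genes were low. Endothelial markers, 8 of 8 tested, summed to 12810 to 13840 in DP and to 1119 to 1521 in CD41 sp cells. None of the 7 mast cell markers passed the filter.

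Set side by side over the non-induced fractions, each of the 9 genes exceeded its DN level in CD41 sp cells, where 7.00% of all tested genes were called higher. Their median log2 difference was 4.81 as fitted, or 4.35 with the 5 genes undetected in DN at their lower bound, against 0.02 over all genes. VE sp levels were exceeded in CD41 sp cells by all 9 as well (14.3% of all genes), with a median of 4.82 as fitted, or 4.35 with the 2 genes undetected in VE sp at their bound. DP cells exceeded DN for 8 of the 9 (11.1% of all genes) and VE sp for 8 of the 9 (3.88% of all genes), with Ppbp the exception both times. The Gp1bb call of DP against VE sp cells (at least 1.43-fold, 0.0413) was lost with no filter (0.0893), with the authors' processed values (0.231), without background correction (0.18), with an offset of 50 (0.254), and without any 1 of the 3 VE sp arrays or DP replicate 1 or 2 (0.0701 to 0.247). The F13a1 call of CD41 sp against VE sp cells was lost with the authors' values (0.0585). In CD41 sp against DP cells 7 were higher (5.23% of all genes), F13a1 was lower (7.10% of all genes) and Plek was not called. The 7 were the 4 subunits of the receptor complex, Treml1 and both chemokines. In these counts for CD41 sp cells Ppbp is not independent of the filter, which it passed through that group alone.

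Between non-induced VE sp and DN cells, 5 of the 9 genes were undetected in DN cells, some of them in VE sp cells too. A level below detection is not known. In the non-induced state F13a1 was called higher in VE sp cells, at least 1.63-fold (0.00197; 12.4% of all genes were higher; adjusted p = 0.0822 with the authors' processed values), and Gp9 was lower as given above (12.2% of all genes were lower). Plek differed by 1.27 ± 0.59 without reaching the threshold (0.127), and was called with the replicate as a block (0.000645), where 43.8% of all genes were called. The other 6 differences lay between -0.12 and 0.79 and none was called. Among them Gp1bb and Ppbp were undetected in both groups, and Treml1 and Cxcl4 in DN cells.

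In induced cells 8 of the 9 genes kept the order of their CD41 sp and DP means, and Plek did not. CD41 sp cells again exceeded DN cells for all 9 genes (5.86% of all genes) and VE sp cells for all 9 (15.6%). The same 8 genes were higher in DP than in DN (10.3%) and in VE sp cells (7.36%). CD41 sp exceeded DP for 5 genes (4.01% of all genes), namely Gp5 (2.23 ± 0.51, 0.00429), Gp1bb (3.47 ± 0.34, 2.62e-07), Gp9 (1.48 ± 0.27, 0.000556), Treml1 (2.02 ± 0.31, 7.41e-05) and Ppbp (at least 1.24-fold, 0.0209). The calls of Ppbp in induced CD41 sp cells, where 2 of 3 arrays detected it, rested on the processing. Against DP the call was lost under median scaling (0.407), with the authors' processed values (0.39), without background correction (0.0535), with an offset of 50 (0.115), with the mean over probes (0.08), and without induced CD41 sp replicate 2 or induced DP replicate 2 or 3 (0.0538 to 0.148). Against DN it was lost under median scaling (0.112), with the authors' values (0.119), with an offset of 50 (0.0637) and without induced CD41 sp replicate 2 (0.0652), and against VE sp under median scaling (0.0901) and with the authors' values (0.0923). Gp1bb was at least 1.87-fold higher in DP than in DN (0.012) and at least 1.78-fold higher than in VE sp cells (0.00459). With the authors' values (0.163 and 0.0625) and an offset of 50 (0.0897 and 0.0578) both calls ended, and the one against DN also without background correction (0.104) and without induced DP replicate 2 (0.109). F13a1 was lower (7.39% of all genes). Gp1ba (0.60 ± 0.37, 0.381) and Cxcl4 (1.03 ± 0.69, 0.441) were not called, nor was Plek, at -0.23 ± 0.59 (0.891), with a mean of 11.02 in DP and 10.79 in CD41 sp cells. Whether the CD41 sp to DP differences of Gp1ba and Cxcl4 changed with induction was tested on the responses. In VE sp against DN, Treml1 was called higher (0.99 ± 0.31, 0.0188; 13.3% of all genes were higher), a call lost with the authors' values (0.169), without background correction (0.181), with an offset of 50 (0.116), and without induced VE sp replicate 3 or induced DN replicate 1 or 2 (0.0502 to 0.106). With the replicate as a block, Gp9 (-0.47, 0.0429) and Cxcl4 (at least 1.57-fold higher, 0.0437) were called as well, where 46.3% of all genes were called.

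**Figure D2:**
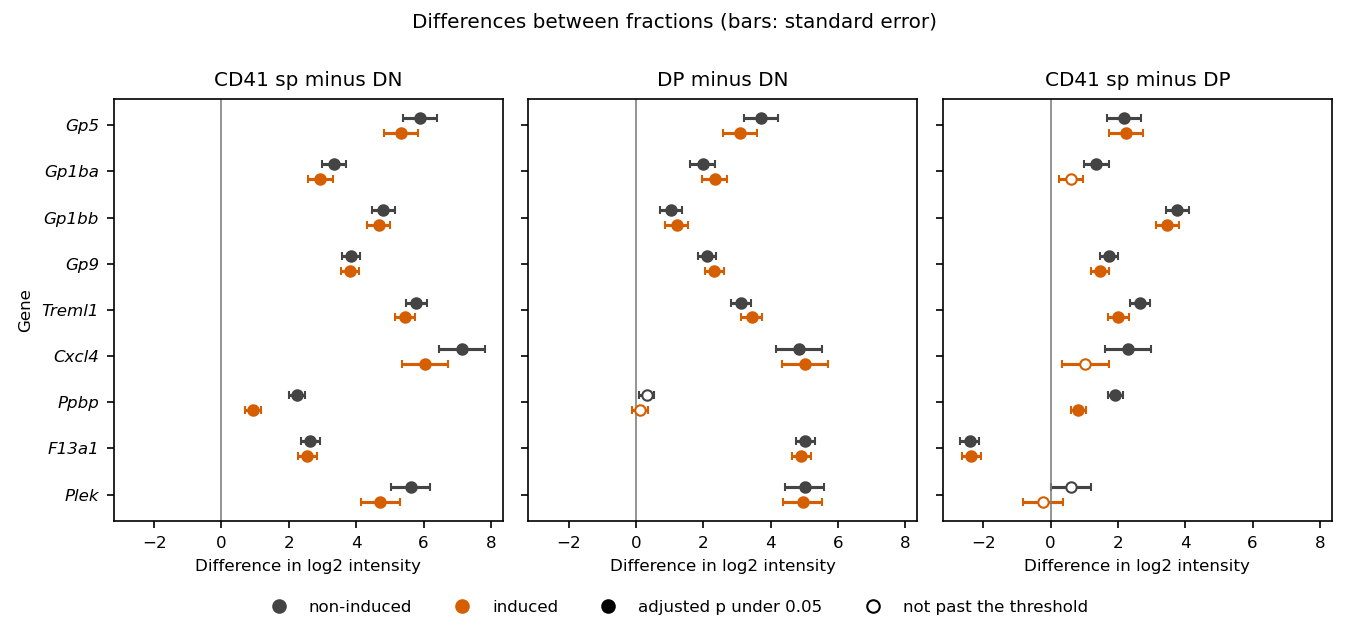
Differences in log2 intensity between fractions for the 9 genes, in non-induced (grey) and induced (orange) cells, with bars for limma's SE and filled symbols for an adjusted p under 0.05. All 9 lie to the right in CD41 sp minus DN, and in CD41 sp minus DP F13a1 lies to the left at -2.39 and -2.36.

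The spread between replicates had a direction of its own. In non-induced CD41 sp cells all 9 genes had their highest value in replicate 2, as 33.9% of all tested genes did, and in induced CD41 sp cells all 9 did so again, against 36.4% of all genes. Both held for 22.2% of all genes. Replicate 2 exceeded the mean of the other replicates by 0.25 to 2.04 log2 units in the non-induced cells, with a median of 0.81 over the 9 genes and -0.03 over all genes. In induced CD41 sp cells the excess was 0.54 to 2.80 (median 1.23, against -0.01 over all genes). The largest excess in both conditions was that of Cxcl4. In DP cells replicate 2 was highest for 7 of 9 genes in the non-induced state, as for 32% of all genes. In the induced state it was highest for 5 of 9, against 25% of all genes. The excess in DP cells ran from -0.26 to 1.48 in the non-induced and from -0.16 to 1.92 in the induced state. The mean raw intensity of the CD41 sp array of replicate 2 was the lowest of the 3 arrays in the induced group (238, against 412 and 471) and the middle one in the non-induced group (474, against 393 and 522). In raw signal, non-induced CD41 sp replicate 2 was the highest of the 3 arrays for each gene. Induced CD41 sp replicate 2 was the highest in raw signal for Gp5, Gp1ba, Gp1bb, Cxcl4 and Plek only. It was the middle one for Treml1 and the lowest for Gp9 (591, against 714 and 636), F13a1 and Ppbp (65.8, against 71.0 and 71.4). For Treml1, Gp9, F13a1 and Ppbp the top rank thus appeared only after background correction and normalization.

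**Figure D3:**
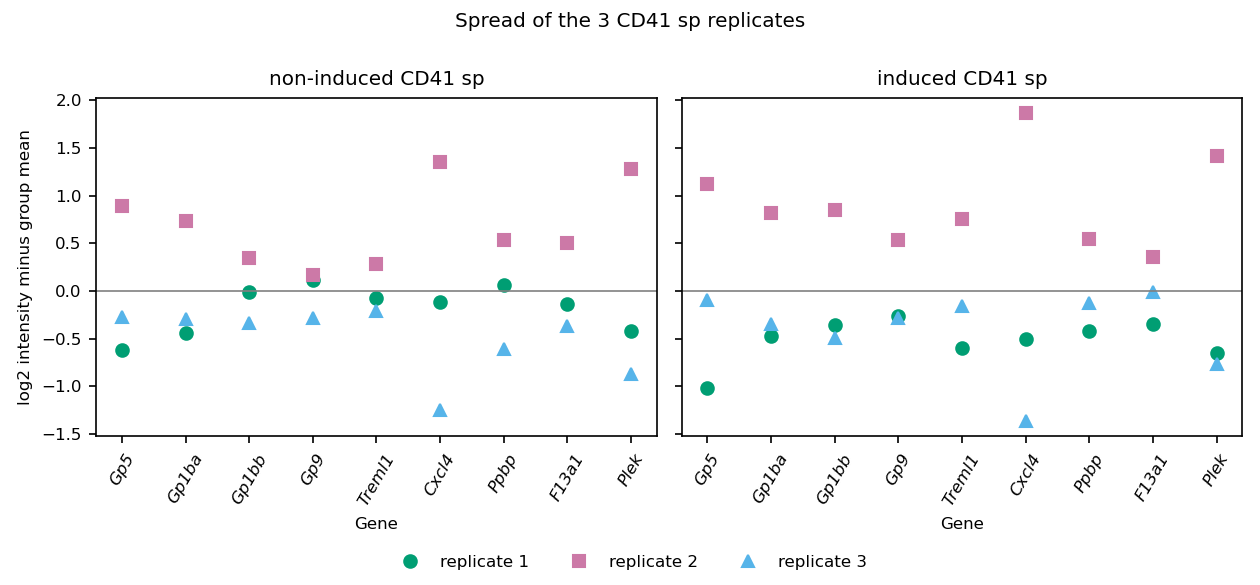
Log2 intensity minus the group mean for each of the 3 CD41 sp replicates, by gene, in non-induced (left) and induced (right) cells. The squares of replicate 2 are the highest for all 9 genes in both panels, from 0.25 to 2.04 above the mean of the other replicates on the left and 0.54 to 2.80 on the right.

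The main question of the design is what ICN1 induction does within each fraction. In CD41 sp cells 1 of the 9 genes was called, Ppbp, where 0.0938% of all genes, 9 of 9591, were called in either direction. Ppbp had passed the filter through non-induced CD41 sp cells alone, the group in which it was high, so its fall from that group is not independent of the filter. Its values fell from 6.66, 7.14 and 5.99 in non-induced to 4.84, 5.81 and 5.13 in induced cells, where 2 of 3 arrays detected it. The groups did not overlap, and the difference was -1.34 ± 0.23 (adjusted p = 0.012, interval of the difference -1.82 to -0.86). Within replicates 1, 2 and 3 it was -1.83, -1.33 and -0.86. The second Ppbp probe went from 6.07, 7.46 and 5.61 to 4.64, 5.97 and 4.73, lower in each replicate but overlapping between groups, with detection on 1 of 3 induced arrays. Raw signals of the first probe were 93.5 to 216 in non-induced and 65.8 to 71.4 in induced CD41 sp cells.

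This call rested on several choices. It was lost under median scaling (0.149), with the authors' processed values (-0.92, adjusted p = 1), without background correction (0.0703) and with the mean over both probes (0.0852). Leaving out non-induced CD41 sp replicate 1 or 2, or induced CD41 sp replicate 1 or 3, also ended it (0.091 to 0.16). It was kept with the replicate as a block (0.00224). The direction was the same in each of these. Summed megakaryocyte markers overlapped between the conditions, at 3540 to 7491 in non-induced and 3155 to 7129 in induced CD41 sp cells.

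The other 8 genes in CD41 sp cells did not pass the test. All 9 differences were below 0, from -1.34 to -0.04 with a median of -0.29, against -0.01 over all genes, and 5 of the 9 were below 0 within each replicate. The share of all genes with such signs was not counted. The 9 genes were read on the same arrays, so their signs are not independent and carry no test. Cxcl4 went from 11.57, 13.04 and 10.44 to 9.88, 12.25 and 9.02, and within replicates the differences were -1.69, -0.80 and -1.42. Its mean difference, -1.30 ± 0.69, was about as large as that of Ppbp, but the replicates of each group ranged over more than 2 log2 units and the groups overlapped (adjusted p = 1, 0.234 with the replicate as a block, interval of the difference -2.74 to 0.13). Gp5 went from 10.40, 11.91 and 10.74 to 9.51, 11.65 and 10.43 (-0.48 ± 0.51) and Plek from 10.96, 12.66 and 10.51 to 10.15, 12.20 and 10.03 (-0.59 ± 0.59), overlapping in both cases. The remaining 3 subunits differed by -0.29 ± 0.37 for Gp1ba, -0.04 ± 0.34 for Gp1bb and -0.26 ± 0.27 for Gp9. Their intervals reached down to -1.05, -0.74 and -0.82 and up to 0.48, 0.66 and 0.30. Treml1 (-0.21 ± 0.31) and F13a1 (-0.04 ± 0.28) differed less than their replicates did.

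In VE sp cells limma called 0 of the 9 genes, and 2 had an unadjusted p under 0.05 (1.14% of all genes were called). Treml1 read 4.72, 5.18 and 4.43 in non-induced cells, detected on 1 array, and 5.85, 5.43 and 6.28 in induced cells, detected on 3. The groups did not overlap, with 1.08 ± 0.31 (adjusted p = 0.122, and 0.0253 with the replicate as a block) and 1.13, 0.25 and 1.85 within replicates. F13a1 read 6.26, 5.19 and 5.50 and 5.37, 4.87 and 4.45, lower in each replicate but overlapping between groups (-0.75 ± 0.28, 0.407). Macrophage and monocyte markers in VE sp summed to 1123 to 1523 without and 1169 to 1312 with induction, most of it Mrc1 (10.07 and 10.00). Lyz went from 6.27 to 5.48 and Lyzs, undetected in VE sp cells, from 4.95 to 4.51, whereas Fcgr3 went from 5.26 to 5.66, and their part in the F13a1 values was not tested. The other 7 genes differed by -0.66 to 0.32, with Gp1bb and Ppbp undetected in both conditions.

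Neither DP nor DN cells gave a call. In DP cells limma called 0 of 9, 0 of them with an unadjusted p under 0.05 (0.136% of all genes were called), and the differences ran from -0.54 for Gp5 to 0.47 for Gp1ba. Gp1ba read 6.99, 7.42 and 6.87 without and 6.93, 7.52 and 8.24 with induction, the higher mean coming from replicate 3. Ppbp values of induced DP cells lay below those of non-induced ones, but no array of either detected it. In DN cells limma also called 0 of 9, again 0 at an unadjusted p under 0.05 (0.928% of all genes were called), over a range of -0.22 to 0.31. There Gp1bb, Cxcl4, Ppbp and F13a1 were undetected on every array of both conditions, and Treml1 on all but 1 induced array. A response of these genes below detection is not known. Averaged over the 4 fractions, limma called 0 of 9, with 2 at an unadjusted p under 0.05 (2.97% of all genes were called). Ppbp was closest (-0.40 ± 0.12, 0.074, and 0.018 with the replicate as a block).

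**Figure D4:**
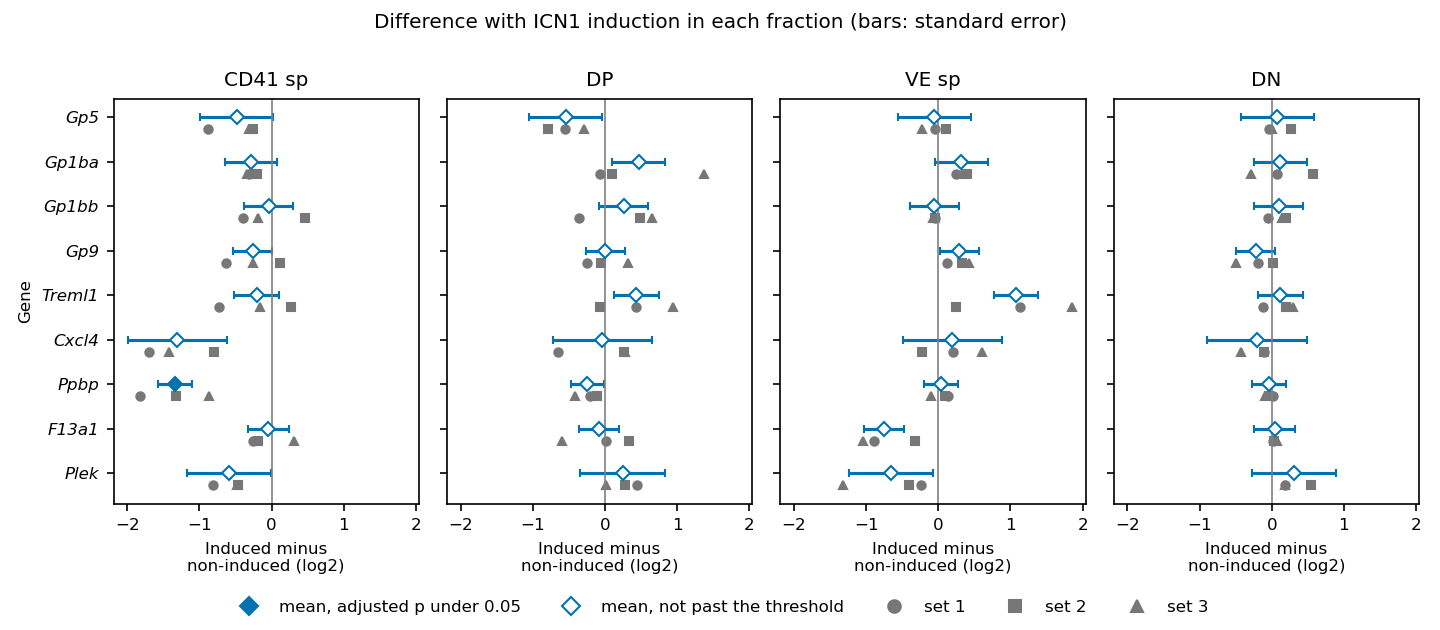
Induced minus non-induced log2 intensity of the 9 genes in each fraction, with diamonds for the mean, bars for limma's SE and grey symbols for the difference within each replicate set. All 9 means lie below 0 in CD41 sp, where Ppbp at -1.34 is the only one past the threshold of adjusted p under 0.05.

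Whether the response to induction differed between fractions was tested directly. An F test over the 4 fractions called 0 of the 9 genes and 0.146% of all genes, and 2 of the 9, Ppbp and Treml1, had an unadjusted p under 0.05. Ppbp had an adjusted p of 0.219, or 0.0341 with the replicate as a block. Over the 6 pairs of fractions and 9 genes, 54 tests, limma called 0, and 5 had an unadjusted p under 0.05. The share of all genes called was 0.0521% for CD41 sp against DN, 0.0938% for VE sp against DN, 0.125% for DP against DN, 0.0209% for DP against VE sp, 0.0104% for CD41 sp against DP and 0.146% for CD41 sp against VE sp. For Ppbp the response in CD41 sp minus that in VE sp was -1.38 ± 0.33 (0.125, 0.0206 with the block, or 0.0262 or 0.038 without non-induced CD41 sp replicate 3 or induced CD41 sp replicate 2), and its probe was undetected in VE sp cells of either condition. For Gp1ba and Cxcl4 the response in CD41 sp minus that in DP was -0.76 ± 0.52 and -1.27 ± 0.98, neither called.

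The wider platelet pathway was read from a list of 56 other megakaryocyte and platelet genes, of which 47 were on the array and 43 passed the filter. In non-induced CD41 sp against DN cells 29 of the 43 were higher and 2 lower, where 7.00% of all genes were higher and 8.62% lower. The median difference was 1.88, or 1.59 with the 10 genes undetected in 1 or both groups at their bound, or at 0 where they had none, against 0.02 over all genes. The thrombin receptor F2rl3 was higher by 4.38 ± 0.36 (1.32e-08) and its relative F2rl2 at least 15.0-fold (1.74e-08). The 2 lower were Gp38, also called podoplanin, at -3.52 ± 0.35 (2.16e-07), and the matrix protein Sparc at -2.30 ± 0.25 (5.64e-07). DP against DN cells gave 26 higher and 2 lower, where 11.1% of all genes were higher and 10.9% lower (median 1.70, against -0.04 over all genes), among them F2rl3 at 5.86 ± 0.36 (7.18e-11), and Gata1, a regulator of megakaryocytes and red cells, was lower in DP by -1.82 ± 0.29 (5.15e-05). VE sp against DN cells gave 18 higher and 5 lower, where 12.4% of all genes were higher and 12.2% lower. The median there was 0.44, against -0.09 over all genes. F2rl3 was also higher in VE sp than in DN cells (adjusted p = 7.08e-10). Its mean was 10.29 in VE sp and 9.67 in CD41 sp cells, so it did not follow the order of most of the platelet genes.

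Between CD41 sp and DP cells the wider list was split, with 9 higher and 6 lower, where 5.23% of all genes were higher and 7.10% lower. Its median was 0.14, against 0.04 over all genes. Itga2b (-0.27 ± 0.24, 0.605) was not called. Sdpr (2.65 ± 0.34, 8.4e-06), Gata1 (2.49 ± 0.29, 2.07e-06) and Tubb1, the platelet beta-tubulin (1.88 ± 0.61, 0.0484), were higher in CD41 sp. Sparc (-3.32 ± 0.25, 4.5e-09), the G protein subunit Gng11 (-2.18 ± 0.18, 2.21e-08) and F2rl3 (-1.48 ± 0.36, 0.00652) were higher in DP. Upon induction 1 of the 43 was called in VE sp cells, where 1.14% of all genes were called. It was Vwf, which encodes von Willebrand factor, the ligand of the GPIb-IX-V complex. Vwf rose there by 3.02 ± 0.55 (0.00497), from a mean of 5.40 to 8.42. It was also called with the replicate as a block (3.03e-05), where 4.36% of all genes were called. The other alternatives were not examined for this gene. In CD41 sp, DP and DN cells limma called 0 of the 43, where 0.0938%, 0.136% and 0.928% of all genes were called.

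Of the genes outside the set, 8 were named for having group means most like the average profile of the 9 over the 8 groups. Pearson's r was 0.998 for Btk, a tyrosine kinase of blood cells, 0.996 for the calpain protease Capn3, 0.994 for vinculin (Vcl), 0.989 for the leukocyte integrin subunit Itgb2 and for the adaptor Dok3, 0.988 for Arhgap4 and for the lipid flippase Atp8b1, and 0.987 for Rab27b, a small GTPase of granule secretion. With 8 points that share arrays and replicates, these values describe the ranking and carry no test. Btk had means of 10.04, 8.20, 4.67 and 4.60 in non-induced CD41 sp, DP, VE sp and DN cells and of 9.48, 8.16, 4.68 and 4.57 in induced ones. Vcl followed the same order over a narrower range, from 12.30 in non-induced CD41 sp to 10.95 in DN cells.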

How the data were processed

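Arrays were grouped by the fraction and induction state in their titles. The deposited tables held probe intensity on a linear scale, not normalized and with no background subtracted, and a detection p-value per probe and array, per the file headers. A further deposited table held the authors' processed intensities, and how they were made is not stated in the sources used here. They served as an alternative. Intensities were background-corrected with limma 3.58.1 in R 4.3.3 (nec, with the negative level taken from detection p-values), an offset of 16 was added, and arrays were quantile-normalized on the log2 scale. Kept were 12894 of 25697 probes with a detection p under 0.05 on 3 of 3 arrays of at least 1 group, and per symbol the one of highest mean signal. The offset and the quantile step compress differences of dim probes. The number of arrays limits the precision.

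A mean for each of the 8 groups was fitted without a block (lmFit and eBayes, 16 residual degrees of freedom), and the code was tested on simulated data. The alternatives were median scaling, no filter, the authors' values, no background correction, an offset of 50, the mean over probes, the replicate number as a block and each array left out. The 10 genes, the other gene lists and the tests were chosen with earlier results of these data known. All 10 genes are named, the genes of like profile are the 8 with the highest r, and of the wider list the 3 largest called changes in each direction are given, save for a gene that is not reported here. Replicate numbers come from the labels, and each marks 1 raw table. Deviations from group means correlated at 0.293 to 0.777 over the 84 same-number pairs of arrays, and at -0.626 to 0.0947 over 168 pairs of arrays that differed in number and group, so the numbers pair the arrays. No 2 arrays held identical values. The labels do not say whether replicates were separate cultures, so the p-values cover only the spread among these arrays, which may be technical. For replicate 1 the columns of induced DN and DP cells carry no induction days in their names and were taken as the induced columns of that table. Promoter sequences are RefSeq's (GRCm38.p6), taken for 10 of 10 genes, with Cxcl4 listed there as Pf4. The array files name no genome build.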

Additional observations from a re-analysis of the deposited data

How the results depend on the processing

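Directions of called differences were the same under every alternative run. The 9 of 9 and 8 of 9 counts for CD41 sp or DP against DN and VE sp stayed within 1.5 times of themselves. With induction in CD41 sp cells, 1 gene was called, and 0 under median scaling, with the authors' values, without background correction and with the mean over probes (0 to 1 with each array left out). In VE sp cells and over the average the count of 0 became 1 with the replicate block (average 0 to 1 with arrays left out). With that block 4.36% of all genes were called in VE sp cells and 12.9% over the average. For non-induced VE sp against DN the count of 2 became 1 under median scaling, without background correction and with an offset of 50. It became 0 with the authors' values, and with the replicate block Plek was called as well, where 43.8% of all genes were called. For induced VE sp against DN the count of 1 became 0 with the authors' values, without background correction and with an offset of 50. It became 3 with the replicate block, where 46.3% of all genes were called, and 0 to 1 with arrays left out. The count of responses that differed among fractions, 0, became 1 with the replicate block and 0 to 1 with arrays left out, and that over fraction pairs 1 and 0 to 2. With the block 2.11% of all genes were called among fractions, and 1.63% for the pair with the call, CD41 sp against VE sp. The paired fit changed no other member's call. Median scaling moved the median induction difference of all genes to -0.19 in CD41 sp and 0.14 in VE sp cells, which is why members are read against the quantile-normalized medians. Leaving out the 4 induced arrays of replicate 2 together, a choice made after seeing the data because each was dimmer than the non-induced array of its fraction in that replicate, ended 4 calls: Ppbp in induced CD41 sp against DN (0.181), DP (0.282) and VE sp (0.095), and Gp1bb in induced DP against DN (0.0638). Calls on dim probes, Ppbp and Gp1bb above all, are limited by their closeness to background.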
